A study of Homo sapiens with 18 samples.

Results

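The 10 genes described here were chosen for their place in the making of histone mRNA, and were looked up by Ensembl identifier and symbol in both count tables: SLBP, NPAT, CASP8AP2, LSM10, LSM11, ZNF473, ERI1, CPSF2, CPSF3 and SYMPK. All 10 were found among the 58825 genes of the tables and all 10 passed the filter on low counts at both times. They were measured in 18 poly-A RNA-seq libraries of OVCAR-3, an established cell line of high-grade serous ovarian carcinoma (HGSC). Cells were kept in stripped medium and given DMSO, 1 µM i-BET151 or 1 µM i-BET858 for 4 or 24 h, with 3 biological replicates per group. DMSO was the vehicle control. i-BET151 is a small-molecule inhibitor of the BET family of bromodomain proteins, and i-BET858 is a bivalent inhibitor of the whole family. All groups shared the same cell line, medium and selection of polyadenylated RNA, and no other cell line was sequenced here.

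Most mRNAs end in a poly-A tail. The mRNAs of the replication-dependent histones do not: they end in a short stem-loop, made by a single cut of the transcript, and are produced in S phase and degraded at its end. NPAT, a substrate of cyclin E-CDK2, and CASP8AP2 (FLASH) work at histone gene clusters, and FLASH also takes part in the cut. SLBP binds the stem-loop, the U7 snRNP with its own subunits LSM10 and LSM11 pairs with the transcript behind it, and ZNF473 is a zinc finger protein that binds SLBP and the U7 snRNP. CPSF3 is the nuclease, held with CPSF2 and the scaffold SYMPK in a core that also cuts other pre-mRNAs, and ERI1 is an exonuclease that trims histone mRNA from its end. A histone transcript that is not cut behind the stem-loop can be cut further on and receive a poly-A tail, so poly-A libraries hold only a part of the histone mRNA of a cell.

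The stem-loop is the element that SLBP and ERI1 hold, and it is shown for the histone gene of each class with the highest mean level over the 18 libraries among the genes of 1 exon in which it was found. In each line the capitals mark the 6-base stem, the 4-base loop and the closing stem, in DNA letters from GENCODE 44 transcripts on GRCh38. H1-2 lies at chr6:26055740-26055764 (minus strand), H2AC6 at chr6:26124664-26124689 (plus), H2BC12 at chr6:27146361-27146386 (minus), H3C10 at chr6:27810511-27810536 (plus) and H4C8 at chr6:26285126-26285151 (minus).
H1-2: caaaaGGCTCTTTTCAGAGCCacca
H2AC6: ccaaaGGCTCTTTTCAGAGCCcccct
H2BC12: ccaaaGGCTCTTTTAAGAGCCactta
H3C10: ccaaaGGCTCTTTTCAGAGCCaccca
H4C8: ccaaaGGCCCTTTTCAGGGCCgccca
A stem that opens with GG, a loop that opens with TT and an exact closing stem were found in the last 120 bases of 64 of 70 histone transcripts (91.4%). The same pattern was found in 4 of 19976 protein-coding transcripts outside the list of 70 (0.02%), those of ENSG00000282988, H3-7, ZNF670-ZNF695 and ZNF81. Of these, H3-7 is by its symbol a histone H3 gene that the list did not hold. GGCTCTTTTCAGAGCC stood in 39 of the 64 transcripts, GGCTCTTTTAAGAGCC in 10 and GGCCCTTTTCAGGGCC in 10.

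The libraries held 27323969 to 46299994 counts, so that 3 counts, the limit that a count of 0 allows, stand for 0.0648 to 0.1098 counts per 1000000 (CPM) in counting error alone. The 10 genes were well above it, with 85 (LSM11) to 8336 (SLBP) counts. Replicate 3 of every group stood apart: 17817 to 20642 genes had a count there, against 23674 to 24947 in replicates 1 and 2, and where leaving it out of every group changed a call, the value in replicates 1 and 2 alone is given. PAX8, WT1, MUC16, EPCAM, KRT7, KRT8, KRT18, CDH1 and CCNE1 were expressed in all libraries at 54.2 CPM or more. Of 7 markers of other cell types, CD3E and CD68 reached 1 count, COL3A1 11, PTPRC 19, PECAM1 31 and HBB 256 counts in the highest library. COL1A1 lay at 21.1 to 46.6 CPM.

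In DMSO at 4 h the levels per kilobase of exon spanned a wide range. SLBP was highest at 58.0 ± 3.0 CPM per kilobase (SD, n = 3), followed by CPSF3 at 24.1 ± 2.2, LSM10 at 14.3 ± 1.3 and CPSF2 at 11.7 ± 2.0. SYMPK stood at 6.08 ± 0.19, ERI1 at 4.17 ± 0.30 and CASP8AP2 at 2.95 ± 0.55. ZNF473 at 1.91 ± 0.15, NPAT at 1.85 ± 0.13 and LSM11 at 1.75 ± 0.31 closed the order and did not differ beyond their spread, and the SDs of LSM10 and CPSF2 also overlapped. Exon lengths are those of GENCODE 44, in which all exons of a gene are merged. The CPM values that follow are not divided by length.

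**Figure D1:**
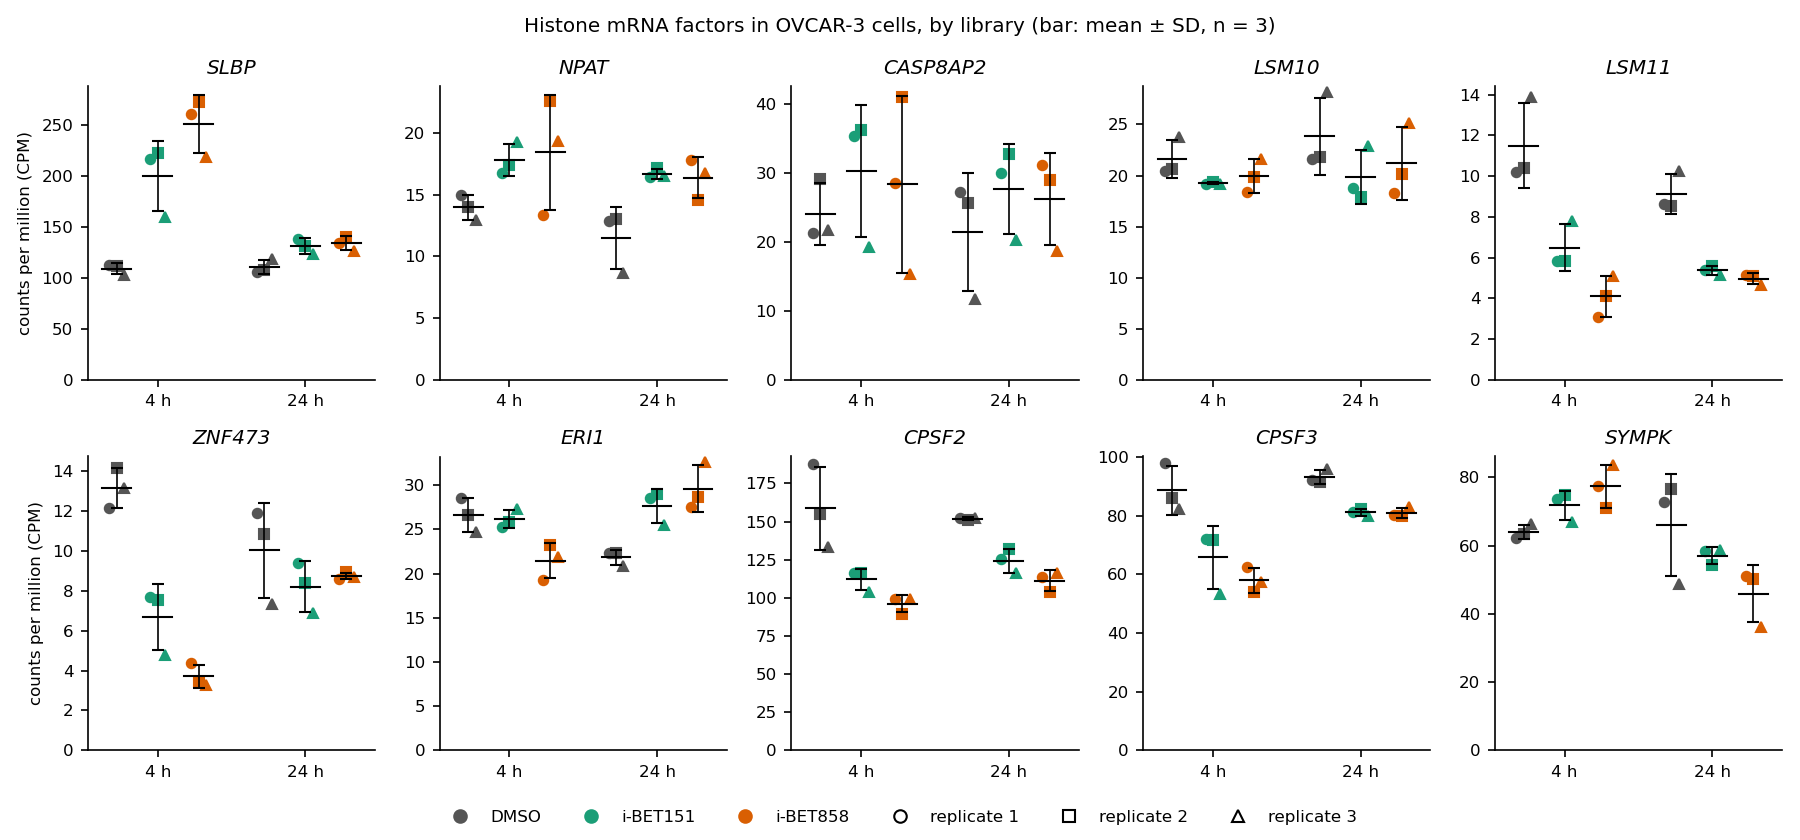
Level of the 10 genes in CPM (linear axis from 0) in each of the 18 libraries, by time, with colour for treatment and shape for replicate number. Bars give mean ± SD of 3 libraries; SLBP stands at 219 to 273 with i-BET858 at 4 h against 103 to 113 in DMSO, while LSM11 and ZNF473 are lower with both drugs at that time.

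The first question was which of these genes moved within 4 h of BET inhibition. With i-BET858, SLBP rose, ZNF473, LSM11, CPSF2 and CPSF3 fell, and the other 5 did not pass the test. The test was edgeR's quasi-likelihood test with Benjamini-Hochberg adjustment over all genes, with an adjusted p under 0.05 as the threshold, and log2 fold changes are given with their SE. Thus 5 of 10 genes were called against a background of 30.8% of all genes tested. Of these, 1 rose and 4 fell, beside 14.5% and 16.3% of all genes, and 3 also changed by at least 2-fold, beside 14.1%. The groups did not overlap for 7 of the 10, beside 44.6% of all genes. With i-BET151, 4 of 10 were called against 16.2% of all genes: SLBP rose (7.81% of all genes rose) and ZNF473, LSM11 and CPSF2 fell (8.43%). None of these reached 2-fold, beside 7.1% of all genes, and the groups did not overlap for 8, beside 36.7% of all genes. The median log2 fold change of the 10 genes was -0.21 for i-BET858 and -0.10 for i-BET151, beside 0.02 and 0.01 over all genes. Both comparisons used the same DMSO libraries.

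SLBP (ENSG00000163950, chr4:1692731-1712344, minus strand, 8 merged exon blocks) was the only one of the 10 genes called higher at 4 h. In DMSO at 4 h it stood at 113, 112 and 103 CPM in replicates 1, 2 and 3, with i-BET151 at 217, 223 and 160.4 CPM, and with i-BET858 at 261, 273 and 219 CPM. All 6 treated libraries were above all 3 DMSO libraries, while the lowest i-BET858 library was below the highest i-BET151 library. The log2 fold change was 1.20 (SE 0.14) with i-BET858, a 2.3-fold rise (95% interval 1.85 to 2.86, adjusted p = 9.19e-05), and 0.87 (SE 0.14, adjusted p = 0.00183) with i-BET151. At 24 h the DMSO libraries held 106, 108 and 119 CPM, those with i-BET151 139, 132 and 123 and those with i-BET858 135, 141 and 127. Every treated library was again above every DMSO library, by a smaller margin. The log2 fold changes of 0.23 (SE 0.10, adjusted p = 0.0771) and, with i-BET151, 0.22 (SE 0.10, adjusted p = 0.104) missed the threshold. With the replicate number as a block, the i-BET858 value at 24 h passed (adjusted p = 0.0437), and without DMSO 24 h replicate 3 both drugs passed (adjusted p = 0.0202 and 0.0329), as they did in replicates 1 and 2 alone (adjusted p = 0.00122 and 0.00289).

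LSM11, a subunit of the U7 snRNP, and ZNF473, which binds it, had the largest falls of the 10 genes with i-BET858 at 4 h. LSM11 (ENSG00000155858, chr5:157743712-157760709, plus strand) stood in DMSO at 4 h at 10.2, 10.4 and 13.9 CPM, with i-BET151 at 5.83, 5.82 and 7.81, and with i-BET858 at 3.10, 4.10 and 5.08. The 3 groups did not overlap. The log2 fold change was -1.48 (SE 0.24, adjusted p = 0.000842) with i-BET858 and -0.83 (SE 0.24, adjusted p = 0.0372) with i-BET151. At 24 h DMSO libraries held 8.63, 8.52 and 10.3 CPM, against 5.37, 5.59 and 5.15 with i-BET151 and 5.16, 5.08 and 4.65 with i-BET858. LSM11 was thus below DMSO in all 9 pairs of libraries with either drug at either time. The fall at 24 h was 0.92 on the log2 scale (SE 0.17, adjusted p = 0.00126) with i-BET858, and the value with i-BET151 was -0.79 (SE 0.17, adjusted p = 0.00417). Of these calls only that of i-BET151 at 4 h was lost when 1 library was left out: without DMSO 4 h replicate 1, 2 or 3, i-BET151 4 h replicate 1 or 2, or i-BET858 4 h replicate 2 its adjusted p was 0.0505 to 0.137.

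LSM10 (ENSG00000181817, chr1:36391238-36397908, minus strand), the other subunit particular to the U7 snRNP, was called in no comparison. It lay at 20.4, 20.6 and 23.8 CPM in DMSO at 4 h, at 19.2, 19.3 and 19.2 with i-BET151 and at 18.4, 19.9 and 21.6 with i-BET858. At 24 h it lay at 21.6, 21.8 and 28.2 CPM in DMSO, at 18.8, 17.9 and 22.9 with i-BET151 and at 18.3, 20.1 and 25.1 with i-BET858. Replicate 3 was the highest library in 5 of the 6 groups. Its log2 fold change with i-BET858 at 4 h was -0.11, with a 95% interval of -0.41 to 0.19, which lies above that of LSM11 (-2.02 to -0.94). With the replicate block, the log2 fold change of -0.28 with i-BET151 at 24 h passed (adjusted p = 0.0386, against 0.234 without the block), and in replicates 1 and 2 alone its adjusted p was 0.0341.

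ZNF473 (ENSG00000142528, chr19:50025714-50053414, plus strand) had the largest fall of the 10 genes at 4 h. DMSO libraries held 12.1, 14.2 and 13.1 CPM, those with i-BET151 7.71, 7.52 and 4.77 and those with i-BET858 4.38, 3.44 and 3.29. The 3 groups did not overlap. The log2 fold change with i-BET858 was -1.82 (SE 0.23, adjusted p = 0.000147), to 0.282 of the DMSO level (95% interval 0.198 to 0.402). With i-BET151 it was -0.98 (SE 0.23, adjusted p = 0.0122), a call that was lost without DMSO 4 h replicate 2 (adjusted p = 0.053). At 24 h the levels were 11.9, 10.8 and 7.35 CPM in DMSO, 9.39, 8.36 and 6.87 with i-BET151 and 8.60, 8.91 and 8.68 with i-BET858. There the groups overlapped, with DMSO replicate 3 below all i-BET858 libraries, and the log2 fold changes of -0.24 (SE 0.20, adjusted p = 0.369) and -0.31 (SE 0.20, adjusted p = 0.261) did not pass. In replicates 1 and 2 alone they were -0.41 (adjusted p = 0.0136) and -0.39 (adjusted p = 0.0194). Exons of VRK3 and of a lncRNA, ENSG00000269091, cover 3.23% and 3.55% of the exon bases of ZNF473 on the opposite strand, and whether the counting used strand is not given in the sources used here.

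Of the cleavage core, the nuclease CPSF3 and its partner CPSF2 fell with i-BET858 at both times, and SYMPK fell at 24 h and was not called at 4 h. CPSF2 (ENSG00000165934, chr14:92121969-92172145, plus strand) stood at 188, 155 and 134 CPM in DMSO at 4 h, at 116, 116 and 104 with i-BET151 and at 99.4, 89.7 and 99.4 with i-BET858. The log2 fold changes were -0.72 (SE 0.14, adjusted p = 0.00191) with i-BET858 and -0.51 (SE 0.13, adjusted p = 0.025) with i-BET151. At 24 h it stood at 152, 151 and 152 CPM in DMSO, at 125, 132 and 116 with i-BET151 and at 114, 104 and 116 with i-BET858. No treated library reached a DMSO library of its time. The log2 fold changes at 24 h were -0.49 (SE 0.09, adjusted p = 0.00131) and, with i-BET151, -0.31 (SE 0.09, adjusted p = 0.0202). The i-BET151 calls were lost at 4 h without DMSO replicate 1 or 2 or any i-BET151 library (adjusted p 0.0602 to 0.107) and at 24 h without DMSO replicate 1 or 2 or i-BET151 replicate 1 or 3 (adjusted p 0.0505 to 0.0566).

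CPSF3 (ENSG00000119203, chr2:9423651-9473101, plus strand) stood at 98.0, 85.9 and 82.2 CPM in DMSO at 4 h, at 72.2, 71.9 and 53.4 with i-BET151 and at 62.6, 54.1 and 57.4 with i-BET858. At 24 h the levels were 92.3, 91.7 and 96.1 CPM in DMSO, 81.4, 82.2 and 79.9 with i-BET151 and 80.3, 79.8 and 82.8 with i-BET858. Treated libraries were below DMSO libraries in all 9 pairs of each comparison. The log2 fold changes were smaller in size at 24 h. In the main edgeR fit this change between the times passed for neither drug (adjusted p = 0.0679 with i-BET858 and 0.395 with i-BET151). With i-BET858 the log2 fold change was -0.61 (SE 0.14, adjusted p = 0.00724) at 4 h and -0.24 (SE 0.08, adjusted p = 0.0357) at 24 h. The latter was lost without any 1 of 8 of the 9 libraries at 24 h, all but i-BET151 replicate 3 (adjusted p 0.0681 to 0.107). With i-BET151 it was -0.43 (SE 0.14, adjusted p = 0.0616) and -0.22 (SE 0.08, adjusted p = 0.0597), and both passed with the replicate block (adjusted p = 0.00464 and 0.0319). In replicates 1 and 2 alone the 4 h value did not pass (adjusted p = 0.0633) and the 24 h value did (adjusted p = 0.0237).

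SYMPK (ENSG00000125755, chr19:45815410-45863194, minus strand) was the one core gene with values above DMSO at 4 h. DMSO libraries held 62.4, 63.5 and 66.3 CPM, those with i-BET151 73.7, 74.7 and 66.9 and those with i-BET858 77.5, 71.0 and 83.7. The groups did not overlap, but the log2 fold changes of 0.28 (SE 0.11, adjusted p = 0.0855) and 0.16 (SE 0.11, adjusted p = 0.385) missed the threshold, and that of i-BET858 passed with the replicate block (adjusted p = 0.0304) but not in replicates 1 and 2 alone (adjusted p = 0.14). At 24 h the levels were 72.7, 76.5 and 48.8 CPM in DMSO, 58.4, 54.2 and 58.6 with i-BET151 and 51.2, 50.3 and 36.2 with i-BET858. DMSO replicate 3 was low and overlapped the i-BET858 group. SYMPK fell with i-BET858 by 0.56 on the log2 scale (SE 0.17, adjusted p = 0.0237). This call was lost without DMSO replicate 1 or 2 or i-BET858 replicate 3 (adjusted p 0.0836 to 0.099), and in replicates 1 and 2 alone the value was -0.58 (adjusted p = 4.68e-05). With i-BET151 it was -0.23 (SE 0.17, adjusted p = 0.345), and -0.44 in replicates 1 and 2 alone (adjusted p = 0.000499). An antisense lncRNA, ENSG00000269148, shares 0.39% of its exon bases.

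ERI1 (ENSG00000104626, chr8:9002147-9116746, plus strand), the exonuclease, rose with both drugs at 24 h and was called with neither at 4 h. At 4 h DMSO libraries held 28.5, 26.6 and 24.7 CPM, those with i-BET151 25.3, 25.9 and 27.2 and those with i-BET858 19.3, 23.2 and 21.9. The i-BET858 libraries were all below DMSO, but the log2 fold change of -0.31 (SE 0.13, adjusted p = 0.11) missed the threshold. At 24 h DMSO libraries held 22.3, 22.3 and 20.8 CPM, those with i-BET151 28.5, 29.0 and 25.5 and those with i-BET858 27.5, 28.7 and 32.6. Here all treated libraries were above DMSO, and ERI1 rose with i-BET858 by 0.40 (SE 0.11, adjusted p = 0.0146) and with i-BET151 by 0.32 (SE 0.11, adjusted p = 0.0476) on the log2 scale. The i-BET151 call was lost without any 1 of 7 libraries at 24 h, all but replicate 3 of either drug (adjusted p 0.0669 to 0.149).

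Of the factors at the histone gene clusters, NPAT (ENSG00000149308, chr11:108157215-108222638, minus strand) rose at 24 h. At 4 h it stood at 14.95, 13.99 and 12.9 CPM in DMSO, at 16.7, 17.4 and 19.2 with i-BET151 and at 13.4, 22.5 and 19.3 with i-BET858. The log2 fold changes of 0.40 (SE 0.19, adjusted p = 0.14) with i-BET858 and 0.35 (SE 0.19, adjusted p = 0.261) with i-BET151 missed the threshold, and without i-BET858 4 h replicate 1, its lowest library, the former was 0.59 (adjusted p = 0.029). At 24 h NPAT stood at 12.8, 13.1 and 8.63 CPM in DMSO, at 16.4, 17.1 and 16.5 with i-BET151 and at 17.8, 14.5 and 16.8 with i-BET858. All treated libraries were above DMSO, and DMSO replicate 3 was the lowest library. The log2 fold changes were 0.47 (SE 0.17, adjusted p = 0.0416) with i-BET858 and 0.52 (SE 0.17, adjusted p = 0.0339) with i-BET151. They were lost without i-BET151 replicate 1 or 2, i-BET858 replicate 1, DMSO replicate 3 or replicate 3 of the drug itself (adjusted p 0.06 to 0.141 with i-BET858 and 0.0515 to 0.101 with i-BET151). In replicates 1 and 2 alone NPAT was 0.29 (adjusted p = 0.0559) and 0.34 (adjusted p = 0.0358) above DMSO.

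CASP8AP2 (ENSG00000118412, chr6:89829894-89874436, plus strand) varied more between replicates than between treatments. It stood at 21.3, 29.2 and 21.7 CPM in DMSO at 4 h, at 35.3, 36.2 and 19.3 with i-BET151 and at 28.6, 41.0 and 15.4 with i-BET858. At 24 h it stood at 27.2, 25.6 and 11.7 CPM in DMSO, at 30.0, 32.7 and 20.3 with i-BET151 and at 31.2, 29.0 and 18.7 with i-BET858. Replicate 3 was the lowest library in 5 of the 6 groups. Its log2 fold change at 4 h was 0.24 with i-BET858 (SE 0.33, adjusted p = 0.633) and 0.33 with i-BET151 (SE 0.33, adjusted p = 0.564). At 24 h it was 0.26 (SE 0.30, adjusted p = 0.538) and 0.34 (SE 0.30, adjusted p = 0.425), and the latter passed with the replicate block (0.39, adjusted p = 0.021) but not in replicates 1 and 2 alone (0.21, adjusted p = 0.0791).

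At 24 h, then, 6 of the 10 genes were called with i-BET858, against 41.7% of all genes tested. NPAT and ERI1 rose, beside 20.5% of all genes, and LSM11, CPSF2, CPSF3 and SYMPK fell, beside 21.3%. With i-BET151, 4 were called against 33.8%: NPAT and ERI1 rose, beside 17.2%, and LSM11 and CPSF2 fell, beside 16.6%. None reached 2-fold with either drug, where 18.8% (i-BET858) and 13.7% (i-BET151) of all genes did, and the groups did not overlap for 6 genes with each, beside 55.1% of all genes with i-BET858 and 48.9% with i-BET151. With the replicate block 7 genes passed for i-BET151, beside 45.9% of all genes, and in replicates 1 and 2 alone 9 did, beside 54.2%. The median log2 fold changes were -0.22 and -0.23, beside -0.01 and 0.00 over all genes. In a bulk sample, a change in the share of cells at a stage of the cell cycle and a change of RNA per cell cannot be told apart.

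**Figure D2:**
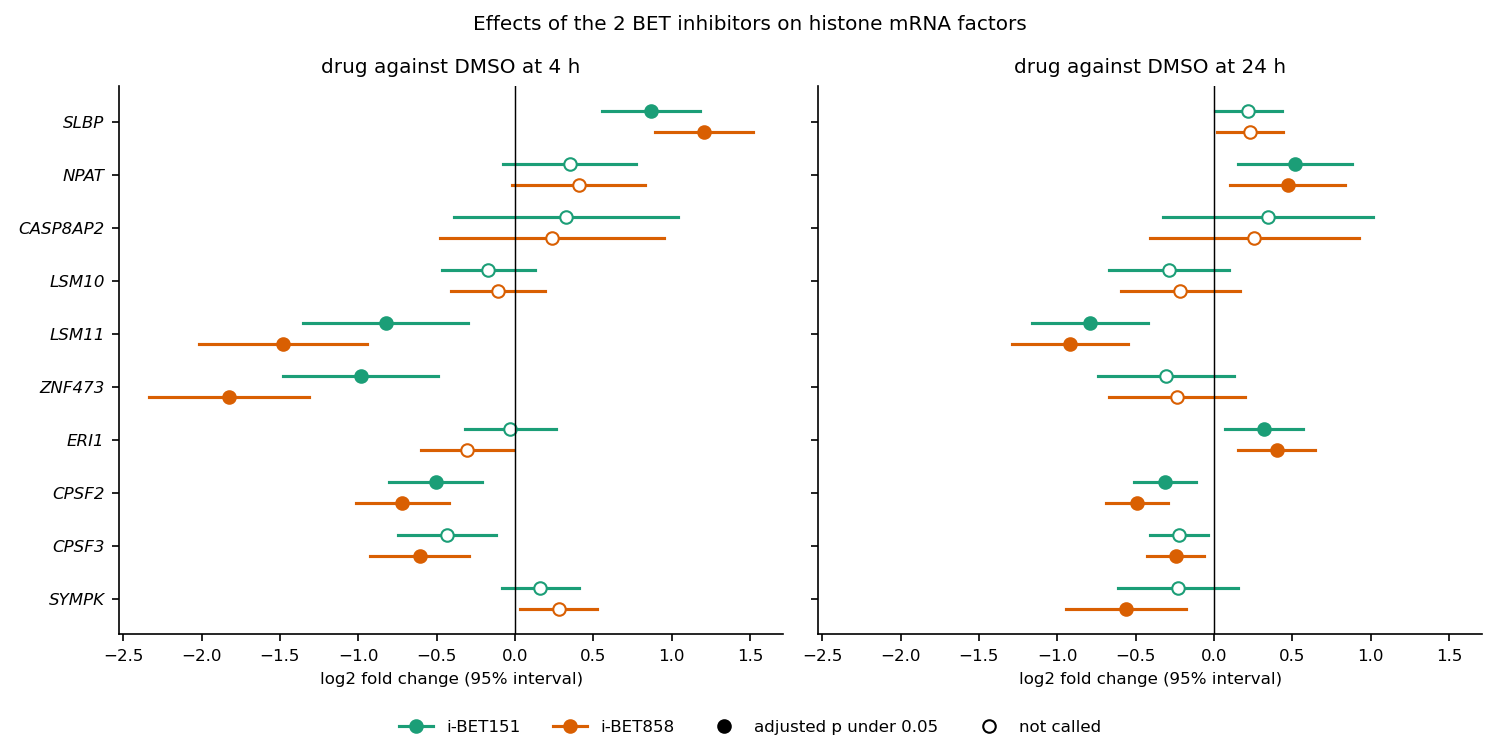
Log2 fold change against DMSO for the 10 genes at 4 h (left) and 24 h (right) with i-BET151 and i-BET858; lines are 95% intervals of the edgeR fit with 3 libraries per group, and filled points passed an adjusted p of 0.05. At 4 h the i-BET858 interval of SLBP runs from 0.89 to 1.52 and that of ZNF473 from -2.33 to -1.31, and at 24 h they run from 0.02 to 0.44 and from -0.67 to 0.20.

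Whether the drugs differed at the same dose of 1 µM was tested directly. None of the 10 genes was called between i-BET858 and i-BET151 at 4 h, where 0.971% of all genes were, or at 24 h, where 0.21% were. At 4 h, 3 genes had an unadjusted p under 0.05 with edgeR, beside 11.9% of all genes. DESeq2 called 1, beside 5.21% of the genes to which it gave an adjusted p, and the groups did not overlap for 4, beside 16.8%. The log2 difference of i-BET858 to i-BET151 was 0.34 for SLBP (95% interval 0.03 to 0.65, adjusted p = 0.362), -0.84 for ZNF473 (-1.34 to -0.34, adjusted p = 0.125) and -0.65 for LSM11 (-1.19 to -0.12, adjusted p = 0.284). Each had the sign of the effect of both drugs against DMSO. All 3 passed with the replicate block (adjusted p = 0.0173, 0.0177 and 0.0299), as did 9.63% of all genes. In replicates 1 and 2 alone ZNF473 passed (adjusted p = 0.041, beside 2.29% of all genes) and SLBP and LSM11 did not (adjusted p = 0.185 and 0.147). CPSF2 had an interval of -0.51 to 0.08 and CPSF3 one of -0.49 to 0.14. At 24 h none of the 10 genes had an unadjusted p under 0.05, beside 11.4% of all genes, and DESeq2 called 0, beside 2.97%. There the interval was -0.20 to 0.22 for SLBP, -0.50 to 0.24 for LSM11, -0.36 to 0.50 for ZNF473 and -0.71 to 0.05 for SYMPK, whose groups did not overlap, beside 19.5% of all genes.

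Whether an effect changed between 4 and 24 h was tested as the interaction of drug and time in a fit of all 18 libraries. For i-BET858, 4 of 10 genes were called, beside 27.2% of all genes, and 1 by at least 2-fold, beside 15.1%. The effect on SLBP was lower at 24 h by 0.93 on the log2 scale (value -0.93, SE 0.17, adjusted p = 0.000585). That on ZNF473 was higher by 1.63 (SE 0.31, adjusted p = 0.000712), that on ERI1 higher by 0.75 (SE 0.16, adjusted p = 0.00247), and that on SYMPK moved by -0.80 (SE 0.21, adjusted p = 0.0096). ERI1 and SYMPK thus had values on opposite sides of DMSO at the 2 times, but for neither did the 4 h effect itself pass. LSM11 moved by 0.61 (SE 0.29, adjusted p = 0.133, and 0.0201 in replicates 1 and 2 alone) and CPSF2 by 0.27 (SE 0.16, adjusted p = 0.226). CPSF3 moved by 0.41 (SE 0.16, adjusted p = 0.0679) and passed with the replicate block (adjusted p = 0.0297), in replicates 1 and 2 alone (adjusted p = 0.02) and without i-BET151 4 h replicate 3 (adjusted p = 0.0368). For i-BET151 only SLBP was called, beside 13.8% of all genes, with a value of -0.63 (SE 0.17, adjusted p = 0.0203). It was lost without i-BET151 4 h replicate 1 or 2 or DMSO 4 h replicate 3 (adjusted p 0.0546 to 0.064), and with the replicate block ZNF473 passed as well (0.73, adjusted p = 0.0366, beside 25.2% of all genes). In replicates 1 and 2 alone ZNF473 did not pass (0.41, adjusted p = 0.194) and SYMPK did (-0.67, adjusted p = 0.00253, beside 26.3% of all genes). DMSO at 24 h was compared with DMSO at 4 h as the background of time itself: none of the 10 genes was called by edgeR or DESeq2, beside 0.0386% of all genes with edgeR and 1.28% with DESeq2, and 1 had an unadjusted p under 0.05, beside 9.17%, ERI1 at -0.29 (SE 0.12, adjusted p = 0.432). The 2 DMSO groups did not overlap for 2 genes, ERI1 and ZNF473, beside 18.4% of all genes.

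**Figure D3:**
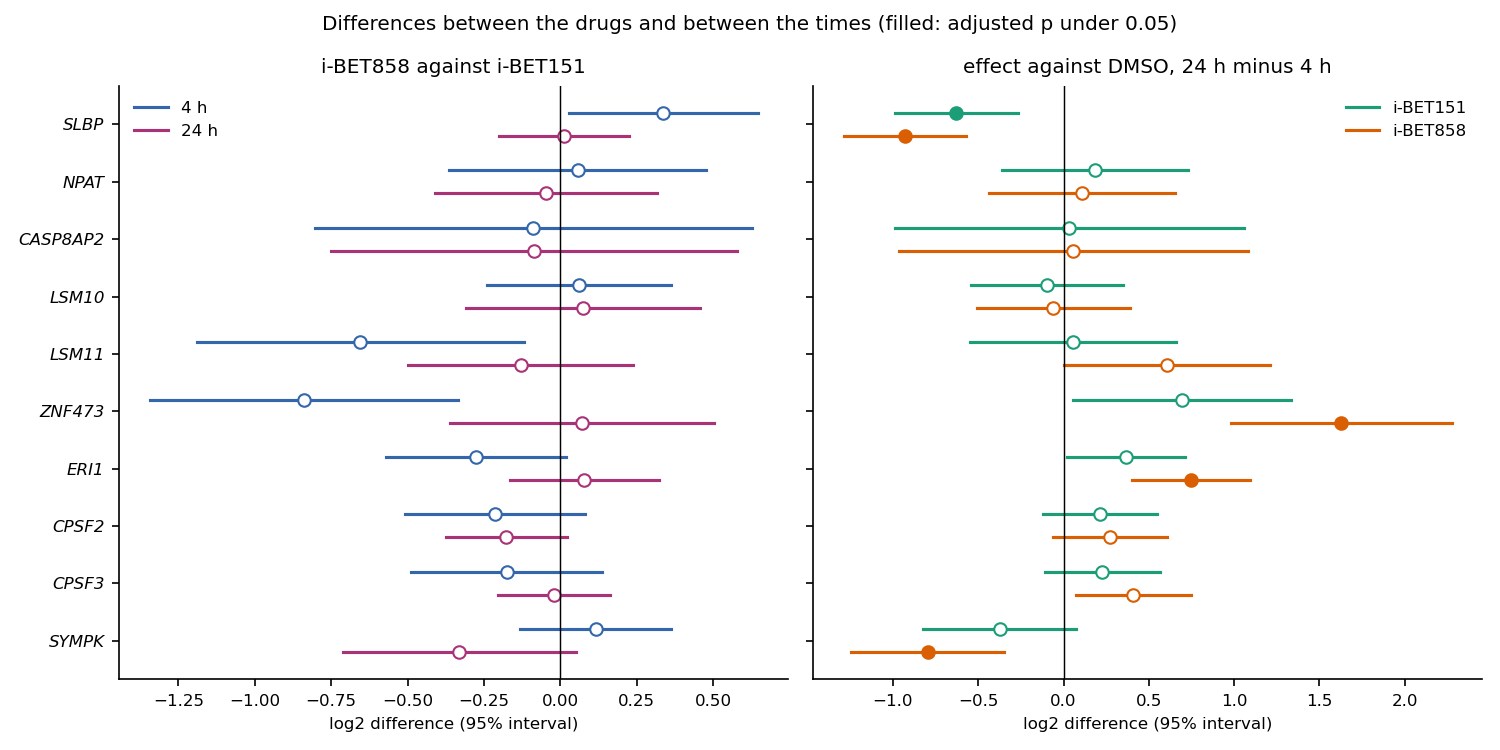
Left, log2 difference of i-BET858 to i-BET151 at 4 and 24 h; right, change of each drug's log2 effect from 4 to 24 h. Lines are 95% intervals and filled points passed an adjusted p of 0.05; no gene is filled on the left, and SLBP, ZNF473, ERI1 and SYMPK are filled for i-BET858 on the right.

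The promoters of 8 of the 10 genes were in the RefSeq table (GRCh38.p14), all but ZNF473 and ERI1. Of these, the bases before the start that no annotated exon covers are shown for SLBP, which rose at 4 h, for LSM11, which fell at both times, and for NPAT and CPSF3, whose start lies close to that of a neighbour on the other strand. Capitals mark the motifs searched on both strands. SLBP is read from chr4:1712345-1712569 (minus), LSM11 from chr5:157743462-157743711 (plus), NPAT from chr11:108222639-108222888 (minus) and CPSF3 from chr2:9423529-9423650 (plus).
SLBP: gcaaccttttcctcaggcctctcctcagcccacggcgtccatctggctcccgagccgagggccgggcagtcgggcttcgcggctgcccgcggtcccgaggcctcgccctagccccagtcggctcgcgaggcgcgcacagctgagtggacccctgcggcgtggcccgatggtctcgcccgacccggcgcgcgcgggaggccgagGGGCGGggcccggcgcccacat
LSM11: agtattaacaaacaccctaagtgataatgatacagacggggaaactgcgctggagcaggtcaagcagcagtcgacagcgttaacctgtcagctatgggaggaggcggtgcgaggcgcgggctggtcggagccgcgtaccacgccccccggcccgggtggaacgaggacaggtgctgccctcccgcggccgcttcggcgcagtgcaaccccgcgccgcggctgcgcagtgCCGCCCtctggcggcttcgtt
NPAT: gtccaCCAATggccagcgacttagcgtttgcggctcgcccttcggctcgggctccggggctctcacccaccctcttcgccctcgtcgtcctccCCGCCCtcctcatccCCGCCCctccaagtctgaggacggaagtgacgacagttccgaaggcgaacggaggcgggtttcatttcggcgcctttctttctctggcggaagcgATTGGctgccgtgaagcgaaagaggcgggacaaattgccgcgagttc
CPSF3: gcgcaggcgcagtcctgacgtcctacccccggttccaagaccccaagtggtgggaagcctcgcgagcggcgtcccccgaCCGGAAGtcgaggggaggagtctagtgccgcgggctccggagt
The motifs were counted in the 250 bases before the start, in the 8 genes and in 27305 promoters of the table. GGGCGG (GC box) was found in 5 of the 8, SLBP, NPAT, CASP8AP2, LSM11 and SYMPK, and in 42.3% of all promoters. CCAAT (the NF-Y box) was found in NPAT, CASP8AP2, LSM10 and CPSF2, and in 33.0% of all. TTTNNCGC (E2F-type) was found in CASP8AP2 and CPSF3, and in 5.93% of all. CCGGAAG (ETS-type) was found in CPSF3 and in 8.82% of all. TTTGAA (CHR) and CACGTG (E-box) were found in none of the 8, beside 13.6% and 6.49% of all promoters. These letters can overlap one another and mark no binding, and SLBP and LSM11, which moved in opposite directions, both held a GC box.

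Of the 10 genes, 4 start within 1000 bases of a gene on the other strand, and the neighbours did not pass the test in any comparison with DMSO. ATM, the DNA damage kinase, starts 429 bases from NPAT and had log2 fold changes of -0.01 (SE 0.20) at 4 h and 0.46 (SE 0.25, adjusted p = 0.161) at 24 h with i-BET858, where NPAT had 0.40 and 0.47. VRK3, a kinase family gene, starts 633 bases from ZNF473 and had 0.15 (SE 0.15, adjusted p = 0.482) at 4 h, where ZNF473 fell. NDUFB1, of respiratory complex I, starts 263 bases from CPSF2 and had 0.31 (SE 0.19, adjusted p = 0.255) at 4 h, where CPSF2 fell. ITGB1BP1, which binds integrin tails, starts 126 bases from CPSF3 and had 0.09 (SE 0.12, adjusted p = 0.643) at 4 h, where CPSF3 fell. The difference between neighbours was not tested.

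The histone genes themselves are set beside these factors. Of 70 replication-dependent histone genes listed, 66 were in the tables and their summed level was 614 ± 145 CPM (SD, n = 3) in DMSO, 1330 ± 259 with i-BET151 and 1732 ± 399 with i-BET858 at 4 h. At 24 h it was 645 ± 31, 2067 ± 254 and 2714 ± 67 CPM. The treated libraries lay above all DMSO libraries at both times. At 4 h, 31 of the histone genes reached the minimum of the filter on low counts in the DMSO libraries themselves, of which 27 rose for i-BET858 (median log2 fold change 1.82) and 22 for i-BET151 (1.20), and none fell. At 24 h, 31 did so, of which 28 rose for i-BET858 (2.25) and 27 for i-BET151 (1.87), and none fell. Of all genes, 14.5% and 7.81% rose at 4 h and 20.5% and 17.2% at 24 h. A further 16 genes at 4 h and 19 at 24 h were under that minimum in at least 1 DMSO library and entered the test with the help of treated libraries, so that they had little room to be called lower. With them, 35 and 28 of 47 rose at 4 h and 40 and 32 of 50 at 24 h, counts that rest in part on how they entered. Histone genes of a class are close copies, so reads can be split between them, and the libraries hold only RNA selected for a poly-A tail. SLBP was highest at 4 h, whereas the histone sum was highest at 24 h.

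The 5 genes whose stem-loop is printed were picked by their level over all libraries, treated ones included, which favours genes that are high with a drug, so their values are a description and add no support to the counts of the list. H1-2, a linker histone, went from 119 ± 24 CPM in DMSO to 255 ± 68 with i-BET858 at 4 h (log2 fold change 1.10, SE 0.21, adjusted p = 0.0019) and from 136 ± 16 to 530 ± 35 at 24 h (1.92, SE 0.11, adjusted p = 1.02e-06). H3C10 went from 7.64 ± 1.10 to 37.6 ± 9.2 CPM at 4 h (2.30, SE 0.24, adjusted p = 3.68e-05) and from 7.47 ± 2.41 to 75.3 ± 2.7 at 24 h (3.29, SE 0.29, adjusted p = 1.08e-05). H4C8 rose by 1.52 (SE 0.26, adjusted p = 0.00115) and 2.72 (SE 0.18, adjusted p = 1.60e-06), and H2AC6 by 1.17 (SE 0.25, adjusted p = 0.00389) and 2.03 (SE 0.12, adjusted p = 1.13e-06). H2BC12 rose by 1.20 (SE 0.27, adjusted p = 0.00529) at 4 h and 0.87 (SE 0.25, adjusted p = 0.0157) at 24 h. With i-BET151, H2BC12 missed the threshold at both times (0.73, adjusted p = 0.0876, and 0.69, adjusted p = 0.0515), and the other 4 were called higher. The largest rises among the histone genes rested on low counts: H4C4 stood at 0 to 0.18 CPM in DMSO and at 0.142 to 3.54 with i-BET858 at 4 h, and H3C15 at 0 to 0.0337 in DMSO and at 1.46 to 1.78 with i-BET858 at 24 h.

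**Figure D4:**
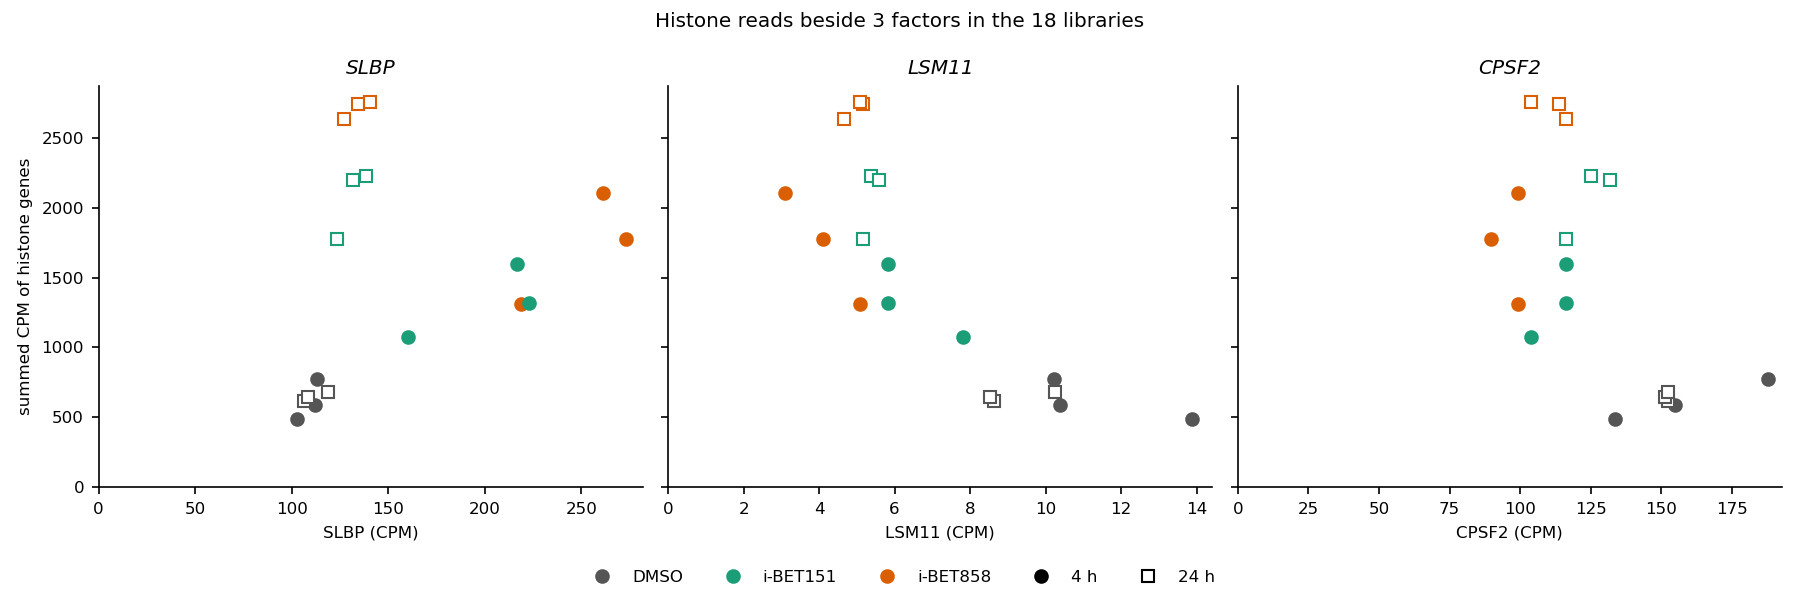
Summed level of 66 histone genes (vertical axis, CPM) against the level of SLBP, LSM11 and CPSF2 (horizontal axes, CPM) in the 18 libraries; filled circles are 4 h and open squares 24 h. DMSO libraries lie at 486 to 771 CPM of histone reads at both times; with i-BET858 the histone reads are highest at 24 h, where SLBP is at 127 to 141 CPM.

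Genes of the surrounding steps were taken as lists, and members of most lists moved in both directions. Their counts with i-BET858 stand beside 14.5% of all genes called higher and 16.3% called lower at 4 h, and 20.5% and 21.3% at 24 h, and beside medians over all genes of 0.02 and -0.01. Of 14 further genes of histone gene transcription, 2 rose and 5 fell with i-BET858 at 4 h (14.3% and 35.7%, median log2 fold change -0.28), and 1 rose and 3 fell at 24 h (7.14% and 21.4%, median -0.09). CCNE2, which with CCNE1 encodes the cyclin E of the kinase that acts on NPAT, rose from 8.05 ± 0.84 to 25.4 ± 4.5 CPM at 4 h (log2 fold change 1.66, SE 0.20, adjusted p = 0.000118) and had -0.39 (SE 0.25, adjusted p = 0.238) at 24 h. CCNE1 rose from 165 ± 8 to 385 ± 65 CPM at 4 h (1.22, SE 0.15, adjusted p = 0.000121) and fell at 24 h (-0.51, SE 0.10, adjusted p = 0.00258). With i-BET151 at 4 h, CCNE2 rose by 1.22 (SE 0.20, adjusted p = 0.00201) and CCNE1 by 0.74 (SE 0.15, adjusted p = 0.00636). CDK2, the kinase itself, had 0.35 (SE 0.17, adjusted p = 0.155) at 4 h and fell at 24 h (-0.40, SE 0.13, adjusted p = 0.0283). KAT5, an acetyltransferase, had the largest fall of the list at 4 h (-1.67, SE 0.27, adjusted p = 0.00075), and E2F3, a transcription factor of the cell cycle, the largest at 24 h (-0.91, SE 0.09, adjusted p = 2.67e-05). GON4L fell at 4 h (-0.48, SE 0.16, adjusted p = 0.0445) and rose at 24 h (0.53, SE 0.16, adjusted p = 0.0205).

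The 7 genes of the Sm ring of the spliceosomal snRNPs were measured as well. In the U7 snRNP, LSM10 and LSM11 take the places of the products of SNRPD1 and SNRPD2, and the other Sm proteins are shared. At 4 h, 1 of 7 rose with i-BET858, beside 14.5% of all genes, and this was SNRPD2, whose protein the U7 snRNP lacks (0.41, SE 0.10, adjusted p = 0.00658), while none was called with i-BET151. At 24 h, 4 of 7 fell with i-BET858, beside 21.3% of all genes, and 5 with i-BET151, beside 16.6%, with the largest fall for SNRPE (-0.72, SE 0.12, adjusted p = 0.000751, and -0.61, SE 0.12, adjusted p = 0.00277). SNRPD2 had -0.33 (SE 0.14, adjusted p = 0.0785) and -0.39 (SE 0.14, adjusted p = 0.049). LSM11 was thus lower at both times, and the Sm genes that fell did so at 24 h.

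Of 18 other cleavage and polyadenylation genes, 5 rose and 6 fell with i-BET858 at 4 h (27.8% and 33.3%, beside 14.5% and 16.3% of all genes), and none rose and 2 fell at 24 h (11.1% called, beside 41.7% of all genes). PCF11, a factor of transcription termination, rose at 4 h (1.01, SE 0.15, adjusted p = 0.000454). CSTF1 fell (-1.41, SE 0.20, adjusted p = 0.000278 at 4 h, and -0.41, SE 0.10, adjusted p = 0.0093 at 24 h). NUDT21, which binds upstream of poly-A sites, fell at both times (-0.81, SE 0.12, adjusted p = 0.000329, and -0.50, SE 0.10, adjusted p = 0.00282). CSTF2, a CSTF subunit that also joins histone processing, did not pass (-0.38, SE 0.14, adjusted p = 0.0616, and -0.21, SE 0.10, adjusted p = 0.129). Of 5 genes of the Integrator cleavage module and related nucleases, paralogs of CPSF2 and CPSF3 among them, 2 fell at 4 h and 1 at 24 h, beside 16.3% and 21.3% of all genes, and INTS9 was lower with i-BET858 at both times (-0.61, SE 0.14, adjusted p = 0.00621, and -0.32, SE 0.10, adjusted p = 0.0242).

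Of 9 genes of the cap-binding complex, ARS2 and NELF, which join capping and pausing to histone 3′ processing, 2 fell with i-BET858 at each time (22.2%, beside 16.3% of all genes at 4 h and 21.3% at 24 h) and none rose. NELFA fell from 50.5 ± 3.6 to 13.8 ± 1.2 CPM at 4 h (-1.87, SE 0.17, adjusted p = 1.39e-05) and less at 24 h (-0.44, SE 0.12, adjusted p = 0.0148), and the difference between the times passed (1.47, SE 0.20, adjusted p = 4.70e-05). NELFCD was not called at 4 h (-0.13, SE 0.15, adjusted p = 0.556) and fell at 24 h (-0.79, SE 0.09, adjusted p = 4.43e-05).

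Of 22 histone mRNA decay genes other than ERI1, 3 rose and 8 fell with i-BET858 at 4 h (13.6% and 36.4%, beside 14.5% and 16.3% of all genes), and 4 rose and 8 fell at 24 h (18.2% and 36.4%, beside 20.5% and 21.3%). XRN1, the exonuclease that works from the cap end, stood at 55.6 ± 7.6 CPM in DMSO and 21.2 ± 3.9 with i-BET858 at 4 h (-1.39, SE 0.19, adjusted p = 0.000284). At 24 h it rose from 38.8 ± 4.7 to 57.4 ± 10.9 CPM (0.53, SE 0.16, adjusted p = 0.0224). DIS3, of the exosome, rose at both times (0.50, SE 0.14, adjusted p = 0.0204, and 0.45, SE 0.11, adjusted p = 0.00575). UPF1, a helicase that SLBP recruits for decay, rose by 0.37 (SE 0.12, adjusted p = 0.0374) and 0.77 (SE 0.10, adjusted p = 0.00011). LSM7, of the ring that binds the tail left for decay, had 0.19 (SE 0.13, adjusted p = 0.307) at 4 h and fell at 24 h (-1.12, SE 0.12, adjusted p = 3.12e-05).

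Of 12 partners of SLBP and genes of its turnover, 2 rose and 2 fell with i-BET858 at 4 h (16.7% each, beside 14.5% and 16.3% of all genes), and 5 rose and 1 fell at 24 h (41.7% and 8.33%, beside 20.5% and 21.3%). CTIF, a translation factor that binds SLBP, had -0.14 (SE 0.21, adjusted p = 0.664) at 4 h and rose at 24 h (0.96, SE 0.14, adjusted p = 0.000278). DCAF11, of a ubiquitin ligase, rose at 4 h (0.47, SE 0.12, adjusted p = 0.0107). CSNK2A1, a catalytic subunit of casein kinase, fell at both times (-0.77, SE 0.14, adjusted p = 0.00192, and -0.31, SE 0.09, adjusted p = 0.0214).

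Genes of the cell cycle were counted in the same comparisons, and their part in the results above was not tested. Of 25 S-phase genes other than histones, 3 rose and 6 fell with i-BET858 at 4 h (12% and 24%, beside 14.5% and 16.3% of all genes), and 1 rose and 11 fell at 24 h, beside 20.5% and 21.3%. Their summed level was 2902 to 3198 CPM in DMSO and 2697 to 3167 with i-BET858 at 4 h, and 3060 to 3217 and 2506 to 2756 at 24 h. The histone sum was thus higher at 24 h where the S-phase sum was lower. Of 20 G2 and M-phase genes, 2 rose and 4 fell at 4 h (10% and 20%) and 8 rose and none fell at 24 h, where their sum was 2522 to 2734 CPM in DMSO and 3400 to 3532 with i-BET858. With i-BET151 at 24 h, 1 S-phase gene rose and 8 fell, and 5 G2 and M-phase genes rose, beside 17.2% of all genes that rose and 16.6% that fell. ASF1B, a histone chaperone, rose from 56.3 ± 7.7 to 149 ± 14 CPM at 4 h (1.40, SE 0.14, adjusted p = 2.58e-05) and had 0.08 (SE 0.11, adjusted p = 0.609) at 24 h. CHAF1A, of the chromatin assembly factor, fell at 4 h (-0.96, SE 0.13, adjusted p = 0.000176), and its partner CHAF1B rose at 24 h (0.48, SE 0.08, adjusted p = 0.000889). UNG, a uracil glycosylase, fell at 24 h (-1.19, SE 0.13, adjusted p = 3.88e-05). NUSAP1 rose and BUB1B fell at 4 h (1.10, SE 0.27, adjusted p = 0.00877, and -0.89, SE 0.12, adjusted p = 0.000266), and the mitotic kinesin KIF20A rose at 24 h (0.74, SE 0.08, adjusted p = 4.83e-05).

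**Figure D5:**
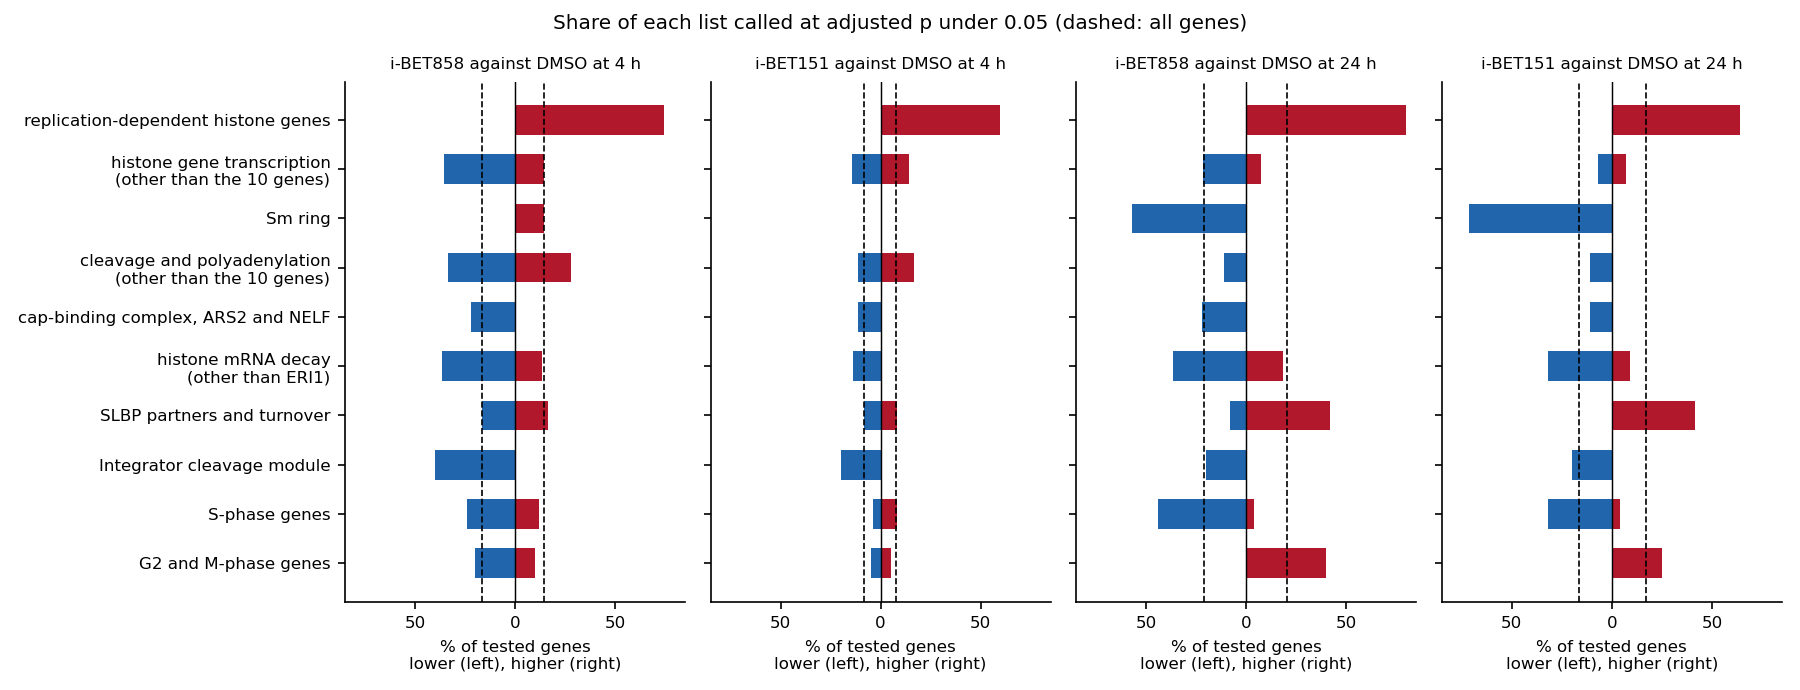
Share of the tested genes of 10 lists that were called lower (left, blue) or higher (right, red) at an adjusted p of 0.05 against DMSO, for each drug and time; dashed lines give the share of all genes tested. The histone genes have calls only to the right, with 35 of 47 at 4 h and 40 of 50 at 24 h for i-BET858, among them genes that entered the test with the help of treated libraries, and the Sm ring has calls to the left only at 24 h.

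Across the 18 libraries the genes with the pattern most like each of the 10 were found by Pearson's r of log2 CPM among 12430 genes. The libraries share treatment, time and replicate number, so the values are a description. Among the genes with a pattern close to that of SLBP were UBE2D1 (r = 0.972) and LAP3 (0.972). LSM11 was nearest to TGFBRAP1 (0.958), DHX37 (0.943) and DAGLA (0.936). ZNF473 was nearest to PPP4R3A (0.957), ARFGAP2 (0.949) and ZNF260 (0.948). CPSF2 was nearest to FASTKD2 (0.958), and CPSF3 to GEMIN6 (0.968). NPAT was nearest to GPATCH2L (0.901), CASP8AP2 to RSRC2 (0.946), LSM10 to SMCO2 (0.862), ERI1 to OSBP (0.914) and SYMPK to PDAP1 (0.943). Among the 10 genes, SLBP had r = -0.82 with both CPSF3 and ZNF473, -0.76 with CPSF2 and -0.71 with LSM11, whereas CPSF3 had 0.86 with CPSF2 and with ZNF473. LSM10 and LSM11 had r = 0.44.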

How the data were processed

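Poly-A RNA of 18 OVCAR-3 libraries was sequenced. As deposited by the authors, values are raw counts per gene from STAR's gene counting on GRCh38 (hg38); STAR's version, the annotation and the strand column are not given in the sources used here. Of 58825 genes, 23896 had no count, and 58472 (99.4%) matched GENCODE 44, which gave symbols and positions; for some genes its identifier version differs from the deposited one, so gene bounds may differ. Library totals were 27323969 to 46299994 counts, and the precision of a fold change rests on the spread between 3 libraries per group.

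Each time point (DMSO, i-BET151, i-BET858) was fitted in 1 edgeR 4.0.16 model (R 4.3.3; TMM normalization, quasi-likelihood test, low genes removed by filterByExpr), and all 18 libraries for changes over time, with Benjamini-Hochberg adjustment over all genes; 17192, 17157 and 18154 genes were tested. Genes were called at an adjusted p under 0.05, as in the study's own DESeq2 analysis; the count with a 2-fold change is given beside. Intervals are 95%. CPM used TMM factors, and a prior count of 2 for correlations. The code was tested on simulated data. Alternatives were DESeq2 1.42.0, other normalizations and filters, other sets of libraries, the replicate block and leaving out each library.

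The 10 genes, the lists and the markers were chosen with earlier results of these data known. Named are the 10 genes, CCNE1, CCNE2, CDK2 and CSTF2, the called gene of each list with the largest rise and fall with i-BET858 at each time, neighbours that start within 1000 bases, and the genes most alike (mean log2 CPM of at least 1). A result under this rule is not reported here. H1-2, H2AC6, H2BC12, H3C10 and H4C8 were added after their values were seen, by their level.

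After removal of group means, libraries of the same replicate number correlated at 0.125 to 0.344 (4 h, median 0.274) and 0.145 to 0.330 (24 h, median 0.263) in 9 pairs each. The 18 other pairs at each time correlated at -0.311 to 0.216 (4 h, median -0.204) and -0.304 to 0.285 (24 h, median -0.232). The medians lay apart, but the ranges overlapped. The numbers come from the sample titles. The last-numbered replicate of every group also stood apart in the number of genes with a count. These correlations therefore cannot show whether every number pairs the libraries or only that replicate differs from the others. The main calls use no block, and the blocked value is given as an alternative where it changes a call. In addition, stem-loops were searched in GENCODE 44 transcripts, and motifs in RefSeq promoters.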

Additional observations from a re-analysis of the deposited data

Results flagged for a closer look

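For several genes the effect of a drug differed between the times, each by the test of the drug-by-time interaction in edgeR. For SLBP the log2 effect of i-BET858 against DMSO was lower at 24 h than at 4 h by 0.93 (value -0.9291), and that of i-BET151 by 0.63 (value -0.6284). For ZNF473 the i-BET858 effect was higher at 24 h (1.629), where its level was closer to DMSO. For ERI1 (0.7472) and SYMPK (-0.796) the i-BET858 values lay on opposite sides of DMSO at the 2 times. No group had more than 3 libraries, so single libraries were not tested as outliers.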

How the results depend on the processing

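No fold change of the 10 genes turned its direction past the threshold under any alternative. Of their fold changes under the alternatives, 1675 kept their call, 35 gained and 63 lost it, and 57 changed sign where neither setting made a call. Of the counts of genes called, 162 were within 1.5 times the main count and 30 were not. Asking for a 2-fold change left 3 genes for i-BET858 at 4 h, 0 for i-BET151 at 4 h, 0 for either drug at 24 h, and 1 (i-BET858) and 0 (i-BET151) for the change over time, beside 14.1%, 7.1%, 18.8% and 13.7%, and 15.1% and 6.7% of all genes. With the replicate block, 3 genes differed between the drugs at 4 h, 7 were called for i-BET151 at 24 h and 2 for its change over time, and the calls that moved are given with each gene. In replicates 1 and 2 only, these counts were 1, 9 and 2. Of all genes, 9.63%, 45.9% and 25.2% were called with the block and 2.29%, 54.2% and 26.3% in replicates 1 and 2 only. Between the drugs at 4 h, 1 gene passed in a fit of all 18 libraries and 1 with DESeq2, beside 3.02% of all genes and 5.21% of those with an adjusted p from DESeq2. For i-BET151 at 24 h, 2 genes passed with no filter on low counts and 2 in a fit of only the 2 groups, beside 19.1% and 32.7%. Leaving out each library in turn gave 1 to 4 genes for i-BET151 at 4 h, 3 (without i-BET858 replicate 3) to 6 for i-BET858 at 24 h, 1 to 4 for i-BET151 at 24 h and 0 to 1 for the change of the i-BET151 effect, beside 9.44% to 18.3%, 32.7% to 44.9%, 23.8% to 35.1% and 8.45% to 14.3% of all genes. The count of histone genes that reached the filter in DMSO was added after seeing the data. Causes were not tested. The 10 genes had 85 counts or more in each library, and counting error was not separated from the spread between libraries.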
